A study of Homo sapiens with 14 samples.

Results

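The cholesterol and fatty acid synthesis genes described here are 34 genes of the mevalonate pathway, the sterol ring reactions, their regulators, fatty acid synthesis and sterol efflux. A gene was taken when the transcript accession of a probe on the array mapped to one of the 34 names, which gave 41 of 50599 probes and 34 of 20992 named genes. RNA levels were measured in A172 and U87-MG (called U87 below), established human glioblastoma lines kept in culture. Cells received either a scrambled control siRNA or siLINC00152, an siRNA to the long noncoding RNA LINC00152, given in the labels as 20 pmol per ml and 40 h before collection. The study's text states a later time and gives the dose per number of cells. A172 was studied in 3 independent experiments and U87 in 4, giving 14 single-colour arrays. Control and siLINC00152 arrays with the same set number were taken as a pair, so a set is 1 control array and 1 siLINC00152 array of a line.

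Mammalian cells build cholesterol from acetyl-CoA through mevalonate, squalene and lanosterol, and draw fatty acids from the same acetyl-CoA pool. When sterols in the endoplasmic reticulum run low, SCAP carries the precursors of the SREBP transcription factors to the Golgi apparatus, where they are cleaved and freed to switch on most genes of both routes. INSIG proteins hold that complex back, while LXR receptors sense oxysterols and switch on the exporters ABCA1 and ABCG1 and the ubiquitin ligase MYLIP. Glioblastoma cells, like other dividing cells, need both products for new membrane.

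The target RNA was lower in every siLINC00152 array. All levels below are log2 processed signal relative to the 75th percentile of the array. LINC00152 stood at 2.63, 2.44 and 2.48 in the A172 controls of sets 1 to 3 and at 0.23, -0.42 and -0.10 in the siLINC00152 arrays. In U87 it stood at 1.94, 1.83, 1.71 and 1.82 in controls and at -1.21, -0.88, -0.74 and -0.79 after siLINC00152. Control and siLINC00152 arrays did not overlap in either line. The target fell by 2.61 in A172 (standard error 0.24, adjusted p = 0.000731, limma without sets) and by 2.73 in U87 (standard error 0.21, adjusted p = 4.96e-05), in 7 of 7 sets.

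Markers of the labelled cells were only partly present. VIM, NES and CD44, known from mesenchymal and glioma lines, were well above background by the scanner's own flag on all 14 arrays, and CHI3L1 on 13. CD44 also moved with the knockdown, since with set number as a block in the model it fell by 1.13 in A172 (standard error 0.12, adjusted p = 0.00807, limma, 1.00 without sets, lower in 3 of 3 sets). In U87 CD44 gave 0.12 (adjusted p = 0.559), and the difference between the lines, -1.25, passed with blocks (adjusted p = 0.0861, limma, 1.00 without). VIM was lower in 3 of 3 A172 sets (log2 fold change -0.36, adjusted p = 0.370 with blocks, limma, 1.00 without). SYP, a neuronal marker, was above background on 0 of 3 A172 controls and 3 of 3 A172 siLINC00152 arrays, and on 1 siLINC00152 array of U87. With no measured control it has no fold. The part of these markers in the results below was not tested. SOX2 passed that flag on 6 of 6 A172 arrays and 0 of 8 U87 arrays, and OLIG2 on 6 and 3. The astrocyte markers GFAP and S100B passed on 1 and 0 of 14 arrays. Among markers of other cell types, the probes for PTPRC, CD68, CDH5 and RBFOX3 passed on all 14 arrays, PECAM1 on the 6 A172 arrays alone, EPCAM, MAP2 and MBP on 1 each, and CDH1 and ALB on 0. What those probes detect in these lines was not tested.

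The synthesis genes had small differences, more often above than below control. A probe entered the test of a line if 3 or more arrays of either group gave it a signal well above background, which left 31 members in A172 and 27 in U87. A probe was called at a false discovery rate under 0.2 with an absolute log2 fold change over 0.5. Without sets, limma called 0 members in A172, where 0.183 percent of 28338 probes were called, and 0 in U87, where 0.0502 percent of 21921 were. At an unadjusted p under 0.05 there were 0 members in A172, against 646 of all probes, and 1 in U87, against 506. With the sets as blocks, limma called 1 member in A172 (ACAT2, higher; 3.26 percent of all probes, 1.09 percent called higher) and 2 in U87 (DHCR7 and ACLY, higher; 4.19 percent of all probes, 2.12 percent called higher). No member's representative probe was called lower, against 2.17 and 2.07 percent of probes, and none was called higher in both lines, against 0.184 percent. The member share was 3.23 percent in A172, near that background, and 7.41 percent in U87. Log2 fold changes were above 0 for 24 of 31 members in A172 (77.4 percent; 54.3 percent of all probes) with a median of 0.11 (0.021 over all probes). SQLE and NSDHL are among those 24 but entered the test through the siLINC00152 group alone, and without set 2 they lay at -0.025 and -0.029, so the count is a description. In U87 they were above 0 for 18 of 27 (66.7 percent; 47.4 percent) with a median of 0.16 (-0.017 over all probes). These medians were -0.017 in A172 without set 1, and in U87 -0.077 without the set 3 control and 0.050 with normexp. Fewer cells of a kind and less RNA per cell cannot be told apart in such bulk RNA.

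The plot of differences by set gives all 34 genes, grouped by role, so that a gene whose sets scatter can be seen beside one whose sets lie together.

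**Figure D1:**
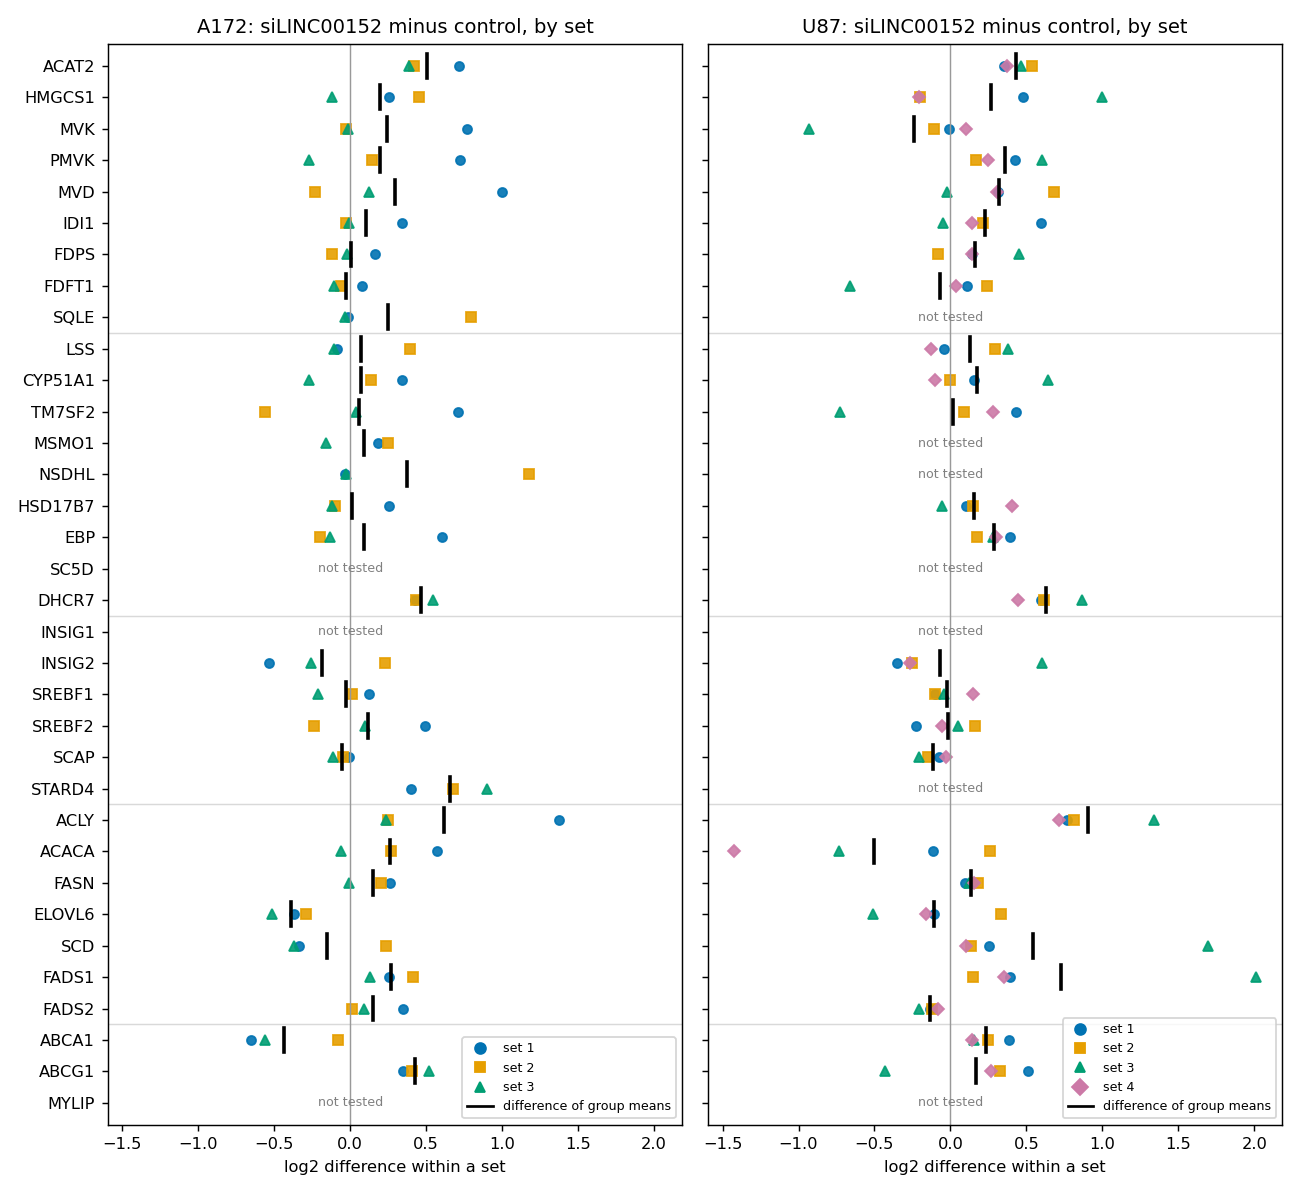
Log2 difference, siLINC00152 minus control, within each set for the 34 genes in A172 and U87. Each point is 1 set, black bars show the difference of the group means, and genes not tested in a line are marked.

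In A172 7 of 31 members were higher in all 3 sets (19.4 percent of probes) and 3 were lower (16.9 percent). In U87 9 of 27 were higher in all 4 sets (16.6 percent) and 2 were lower (13.9 percent). Of the 27 members tested in both lines, ACAT2, DHCR7, ACLY and FADS1 were higher in all 7 sets, where 7.31 percent of probes tested in both were. SCAP alone was lower in all 7 sets (3.4 percent of probes), although with a different background correction (normexp) it was higher in 2 of 4 U87 sets. ABCA1 and FADS2 went opposite ways in the lines in all sets (2.96 percent of probes). The first count, 4 of 27, is too small to set against the share of all probes and is a description. For FADS1, which is among these 4, the U87 set 3 control was not above background, so its difference in that set was not measured. That leaves ACAT2, DHCR7 and ACLY with a measured difference above 0 in all 7 sets.

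The mevalonate genes had log2 fold changes above 0 for 8 of 9 in A172, with a median of 0.20, and for 6 of 8 in U87, with a median of 0.25, although FDPS in A172 turned below 0 under each other scaling and HMGCS1 in U87 with normexp, where FDFT1 turned above 0 in both lines. The A172 count includes SQLE, which entered the test through the siLINC00152 group alone and is above 0 through set 2 alone. In A172 set 1 carried this, with 8 of 9 above control, against 4 of 9 in set 2 (median -0.027) and 2 of 9 in set 3 (median -0.018). ACAT2 encodes the cytosolic thiolase that joins acetyl-CoA units, the entry step of the pathway. Its level was 1.72, 1.91 and 1.49 in A172 controls and 2.44, 2.33 and 1.88 after siLINC00152. In U87 it was -0.12, -0.02, -0.53 and 0.18 in controls and 0.24, 0.52, -0.06 and 0.55 after siLINC00152. The siLINC00152 array was the higher of each pair, while the groups overlapped in both lines.

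With sets as blocks ACAT2 rose in A172 by a log2 fold change of 0.51 (standard error 0.12, 1.42-fold, adjusted p = 0.130, limma, higher in 3 of 3 sets). The adjusted p ran from 0.00844 to 0.482 over 12 fits with blocks, and ACAT2 passed in 3 of them. In U87 the log2 fold change was 0.43 (standard error 0.10, adjusted p = 0.120, limma, 0.120 to 0.294 over those fits, higher in 4 of 4 sets), under the fold limit. Without sets the standard errors were 0.27 and 0.24 and both adjusted p were 1.00. The A172 call was lost on leaving out A172 set 1 (log2 fold change 0.40, adjusted p = 0.482), set 2 (0.55, 0.424) or set 3 (0.57, 0.417). It was also lost without U87 set 1, 2 or 4, which alters the pooled spread (adjusted p = 0.223, 0.212 and 0.220). Under other scalings the value fell just short of the fold limit, at 0.43 with normexp, 0.49 with quantile scaling and 0.49 with the deposited values. The lowest adjusted p, 0.00844, was that of the normexp fit, which thus gave no call.

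FDPS and MVK are the members of this role with the highest signal, and neither passed the test. FDPS, the synthase of farnesyl diphosphate, read 4.36, 4.71 and 4.00 in A172 controls against 4.52, 4.59 and 3.98, and 3.54, 3.60, 2.79 and 3.40 in U87 controls against 3.68, 3.52, 3.24 and 3.54. Those pairs lie close together except in U87 set 3. Near-identical processed copies of FDPS exist, so its probe may also read them. Mevalonate kinase, MVK, read 2.74, 3.86 and 3.30 in A172 controls against 3.51, 3.84 and 3.28, so set 1 alone was apart, with its control low. In U87 it read 2.74, 2.71, 4.01 and 1.70 in controls against 2.73, 2.60, 3.07 and 1.80, and set 3 was the highest in both groups.

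Of the other 6 enzymes of this role, PMVK, the next kinase, was higher in 4 of 4 U87 sets (log2 fold change 0.36, adjusted p = 0.319 with blocks, limma, 0.249 to 0.542 over 12 such fits), and in A172 its sets read 0.72, 0.14 and -0.27. MVD, the decarboxylase, differed by 1.00, -0.23 and 0.12 in the A172 sets and by 0.31, 0.68, -0.02 and 0.30 in U87. The isomerase IDI1 gave log2 fold changes of 0.10 and 0.23 in A172 and U87, with -0.017 in A172 without set 1. Its U87 sets read 0.60, 0.22, -0.05 and 0.14, and with normexp the U87 value was 0.066. HMGCS1, which makes the HMG-CoA that is reduced to mevalonate, gave 0.20 and 0.27, and its U87 sets read 0.48, -0.20, 1.00 and -0.20. HMGCS1 was not well above background on either U87 set 3 array, where its levels were -3.26 and -2.26. The 1.00 is thus no measured difference, and the U87 value of 0.27 rests on it in part. With normexp the U87 value was -0.012. FDFT1, which makes squalene, had values of -0.03 and -0.07, the latter through U87 set 3, where neither array was above background, and 0.13 without that set. SQLE, the squalene epoxidase, was tested in A172 alone, where its sets read -0.01, 0.80 and -0.04. Its control of set 2 was not above background, so that the middle value is no measured difference.

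In the sterol ring role every tested member had a log2 fold change above 0, 8 of 8 in A172 and 6 of 6 in U87, with medians of 0.080 and 0.16, except that HSD17B7 in A172 was at -0.019 with normexp, and NSDHL in A172 was above 0 only through a set 2 difference that was not measured. Without A172 set 1, TM7SF2 (-0.26), EBP (-0.17), HSD17B7 (-0.11) and CYP51A1 (-0.067) lay below 0 in A172, so their sign rested on that set. In A172 set 3 only 2 of 8 were above 0 (median -0.11), and HSD17B7 in A172 and TM7SF2 in U87 lay so near 0 that they turned in 8 and 11 of 42 alternative settings. DHCR7 encodes the reductase that makes cholesterol from its last precursor in one branch of the route. It read 2.99, 3.67 and 3.07 in A172 controls and 3.42, 4.10 and 3.61 after siLINC00152. In U87 it read 2.12, 2.32, 0.50 and 2.21 in controls and 2.71, 2.93, 1.36 and 2.65 after siLINC00152. Every set gave a positive difference, 0.43, 0.43 and 0.54 in A172 and 0.59, 0.61, 0.87 and 0.44 in U87, although the set 3 arrays of U87 lay far below the rest.

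With sets as blocks DHCR7 rose in U87 by 0.63 (standard error 0.11, 1.55-fold, adjusted p = 0.0575, limma, 0.00395 to 0.188 over 12 fits with blocks, higher in 4 of 4 sets). It passed in 11 of those fits. It failed with normexp, where the adjusted p was the lowest (0.00395) but the log2 fold change of 0.47 was under the fold limit. Without U87 set 3 it still passed, at 0.55 (adjusted p = 0.0793). On leaving out the U87 set 3 control array alone, in the fit without sets, the value was 0.20. In A172 the log2 fold change was 0.47 (standard error 0.12, adjusted p = 0.171, limma, 0.00549 to 0.629 over those fits, higher in 3 of 3 sets), under the fold limit. The difference between the lines, -0.16, did not pass (adjusted p = 0.785 with blocks, 1.00 without). Without sets the standard errors were 0.49 and 0.42 and both adjusted p were 1.00.

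The promoters of DHCR7 and ACLY are shown because these genes passed the test in U87 and were higher in all 7 sets. Both are from RefSeq, build GRCh38.p14, and cover the 250 bases upstream of 1 of the 2 start sites given for each gene, outside any exon of that transcript. DHCR7 is at chr11:71448394-71448643 and ACLY at chr17:41919023-41919272, each printed along the minus strand. Capitals mark CCAAT on either strand, a sequence bound by NF-Y, a frequent partner of SREBP. Counted from the start site they lie at -94 and -48 in DHCR7 and at -65 and -23 in ACLY.
DHCR7: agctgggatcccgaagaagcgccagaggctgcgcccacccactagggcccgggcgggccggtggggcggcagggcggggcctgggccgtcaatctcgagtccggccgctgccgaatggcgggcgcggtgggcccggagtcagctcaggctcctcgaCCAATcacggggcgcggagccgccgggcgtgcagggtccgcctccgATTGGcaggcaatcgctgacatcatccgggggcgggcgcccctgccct
ACLY: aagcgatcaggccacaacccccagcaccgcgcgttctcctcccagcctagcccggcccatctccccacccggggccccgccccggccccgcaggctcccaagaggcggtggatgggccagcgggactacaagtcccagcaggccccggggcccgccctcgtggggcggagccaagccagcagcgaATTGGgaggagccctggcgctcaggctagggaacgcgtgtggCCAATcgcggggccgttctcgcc

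The same letters were looked for in the 300-base windows, 250 before and 50 after a start, that RefSeq gave for 29 of the 34 members (39 windows). There was no window for ACAT2, FDFT1, SQLE, FASN or ABCG1. CCAAT, on either strand, was present in 25 of 39 member windows (64.1 percent) and in 34.6 percent of all 35116 windows. Windows of a gene can overlap and hold the same site. By gene, CCAAT was in 21 of 29 members and the E-box in 5, and the share by gene over all promoters was not counted. The E-box CACGTG was in 6 (15.4 percent, 7.26 percent of all windows). TCACNCCAC, the letters of the sterol response element, were in 1, that of SREBF2 at -133 (2.56 percent, 1.13 percent of all windows). Both ACLY windows and 1 of 2 DHCR7 windows, the one printed, held CCAAT and neither of the other motifs, whereas the other DHCR7 window and that of FADS1 held none of the 3. The ACLY windows overlap and hold the same CCAAT sites. In IDI1 and NSDHL, CCAAT matches on opposite strands overlap. A match in letters is a description alone.

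EBP, the sterol isomerase, is the other member of the role with the highest signal. It read 2.30, 3.34 and 3.17 in A172 controls against 2.90, 3.15 and 3.03, and 2.81, 2.92, 3.34 and 2.57 in U87 controls against 3.20, 3.10, 3.62 and 2.87. In U87 the pairs moved together, higher in 4 of 4 sets (log2 fold change 0.29, adjusted p = 0.360 with blocks, limma, 0.167 to 0.525 over 12 such fits), while in A172 set 1 was higher and sets 2 and 3 lower. LSS, which closes the ring to lanosterol, gave log2 fold changes of 0.07 and 0.13 in A172 and U87, and the demethylase CYP51A1 0.07 and 0.17. LSS in A172 was at -0.095 without set 2, and CYP51A1 in U87 at 0.018 without set 3, whose control was not above background. TM7SF2, a sterol reductase, scattered, with 0.71, -0.56 and 0.04 in the A172 sets and 0.43, 0.09, -0.73 and 0.28 in U87. MSMO1, a methyl sterol oxidase, gave 0.09 in A172 and was not tested in U87. NSDHL, a dehydrogenase of the same demethylation, was tested in A172 alone, at -0.03, 1.18 and -0.02, and as for SQLE its set 2 control was not above background. HSD17B7, the reductase that ends it, has 3 probes, which gave 0.01, 0.01 and -0.03 in A172. In U87 its representative probe gave 0.152 and another 0.155, each higher in 3 of 4 sets, the latter at -0.036 with normexp. The remaining probe was not tested in U87. A near-identical copy of HSD17B7 exists in the genome, so its probes may also read that. The second LSS probe was above background nowhere. SC5D, the desaturase, was above background on 2 of 3 A172 controls and 0 of 3 siLINC00152 arrays, and was tested in neither line.

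The SREBP genes and SCAP lay near control. With STARD4 the median log2 fold change of the role was -0.026 in A172, with 2 of 5 above 0, and without it, since it was not tested there, -0.045 in U87, with 0 of 4. In U87 SREBF1 turned above 0 under each other scaling, SREBF2 with normexp, and INSIG2 with quantile scaling and in the deposited values. SREBF1 encodes the SREBP that chiefly drives fatty acid genes. It read 5.04, 6.19 and 5.52 in A172 controls against 5.16, 6.20 and 5.30, and 6.66, 6.78, 5.43 and 5.84 in U87 controls against 6.56, 6.68, 5.38 and 5.99. Sets differed from each other far more than the arrays within a pair, and the log2 fold changes were -0.03 and -0.02. The other SREBF1 probe was lower in 3 of 3 A172 sets, at -0.29, and gave 0.02 in U87, where the probes differ in sign.

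SCAP, the escort of the SREBPs, read 0.89, 0.93 and 0.99 in A172 controls against 0.88, 0.88 and 0.88, and 1.67, 1.77, 1.76 and 1.50 in U87 controls against 1.60, 1.62, 1.55 and 1.47. Although the siLINC00152 array was lower in all 7 pairs, the differences were small, at most -0.21 in U87 set 3, and the log2 fold changes were -0.06 and -0.12 (adjusted p = 0.997 and 0.536 with blocks, limma, 0.826 to 1.00 and 0.478 to 0.899 over 12 such fits). SREBF2, the SREBP that chiefly drives cholesterol genes, gave 0.11 and -0.02, with -0.073 in A172 without set 1. INSIG2 gave -0.19 and -0.07, and in A172 -0.013 without set 1 and -0.39 without set 2. Both of its U87 set 3 arrays were not above background, and without that set the U87 value was -0.29. INSIG1 was tested in neither line, as was MYLIP, which was above background on 0 of 14 arrays.

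STARD4, which carries cholesterol between membranes, was tested in A172. It read -1.07, -2.19 and -1.57 in controls and -0.67, -1.52 and -0.67 after siLINC00152. It was the higher in each pair, by 0.40, 0.68 and 0.90. Its log2 fold change of 0.66 (standard error 0.28, 1.58-fold) did not pass with blocks (adjusted p = 0.456, limma, 0.0103 to 0.912 over 12 such fits, higher in 3 of 3 sets). It passed in 2 of those fits, with A172 fitted alone (adjusted p = 0.124) and without U87 set 3 (0.104), which share this value and differ in the spread used. The lowest adjusted p, 0.0103, was with normexp, where the log2 fold change of 0.41 was under the fold limit. In U87 it was above background on 2 of 8 arrays.

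In the fatty acid role 5 of 7 members in A172 and 4 of 7 in U87 had a log2 fold change above 0, with medians of 0.15 and 0.14. ACLY encodes ATP citrate lyase, which makes cytosolic acetyl-CoA for both routes. It read 3.16, 4.75 and 4.43 in A172 controls and 4.53, 5.00 and 4.67 after siLINC00152. In U87 it read 4.41, 4.56, 3.06 and 4.49 in controls and 5.17, 5.37, 4.40 and 5.20 after siLINC00152. Set 1 carried most of the A172 difference (1.37 against 0.25 and 0.24), with a low control, and the A172 groups overlapped. The U87 sets gave 0.77, 0.81, 1.34 and 0.71, and the U87 groups overlapped only through set 3.

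ACLY rose in U87 with sets as blocks, by 0.91 (standard error 0.21, 1.88-fold, adjusted p = 0.109, limma, 0.00797 to 0.249 over 12 fits with blocks, higher in 4 of 4 sets). It passed in 8 of those fits. It was lost on leaving out U87 set 1 (log2 fold change 0.95, adjusted p = 0.249), set 2 (0.94, 0.247), set 3 (0.76, 0.213) or set 4 (0.97, 0.234), so that the call needs all 4 sets while the fold change stays. In A172 the log2 fold change was 0.62 (standard error 0.24, adjusted p = 0.386, limma, 0.0522 to 1.00 over those fits, higher in 3 of 3 sets), and 0.24 without set 1. It passed there in 1 fit, with normexp (0.62, adjusted p = 0.0522). ACLY was the member with an unadjusted p under 0.05 without sets, at 0.0375 in U87 (adjusted p = 1.00). The difference between the lines, -0.29, did not pass (adjusted p = 0.805 with blocks, 1.00 without).

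The plot of levels by array gives ACAT2, DHCR7, ACLY, FADS1 and both ABCA1 probes on every array, where the line that links the arrays of a set slopes the same way in every set of a cell line, even when the sets lie far apart in level.

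**Figure D2:**
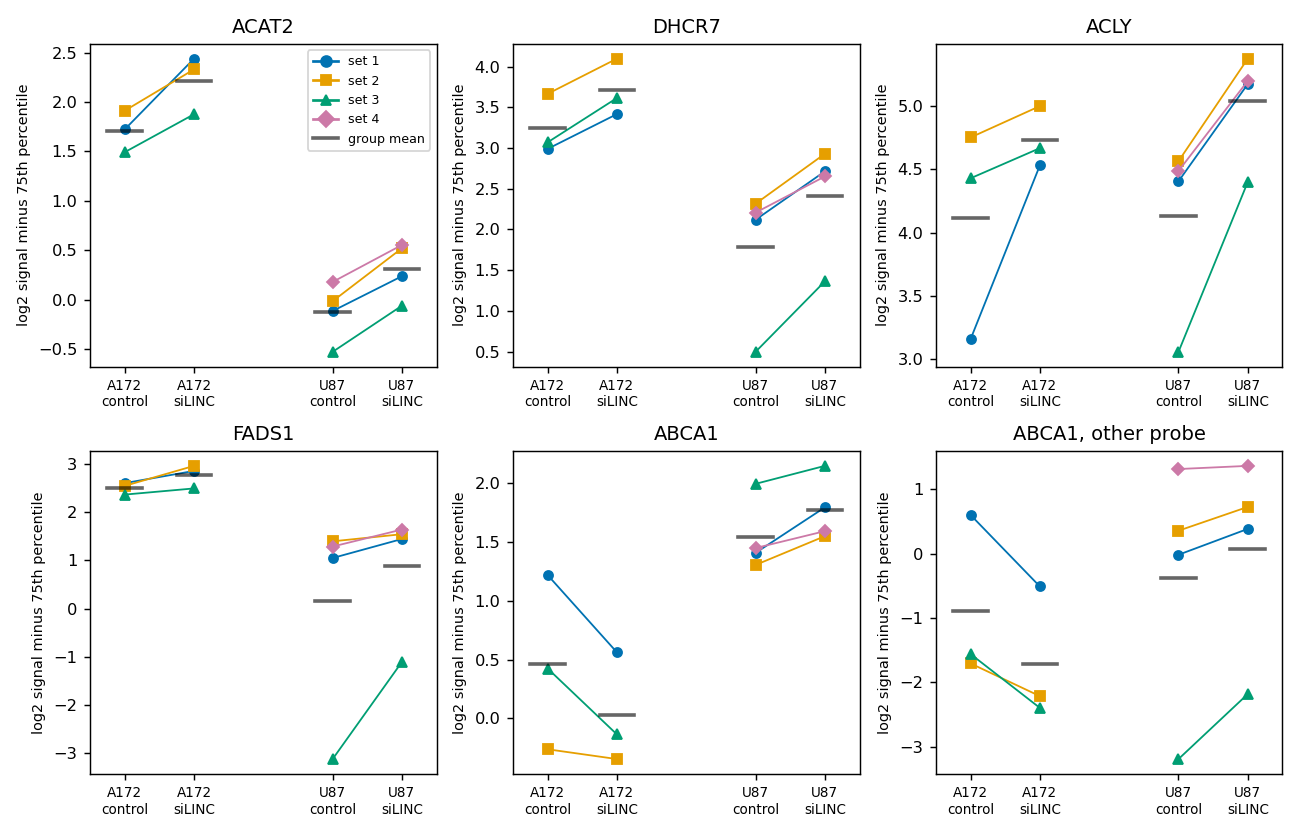
Log2 level of ACAT2, DHCR7, ACLY, FADS1 and the 2 ABCA1 probes on each array, control beside siLINC00152. Thin lines link the arrays of a set, and bars show group means.

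FADS2 and FADS1 encode the desaturases of polyunsaturated fatty acids. FADS2 read 3.62, 4.88 and 4.21 in A172 controls against 3.97, 4.89 and 4.30, and 3.15, 3.26, 3.29 and 2.75 in U87 controls against 3.01, 3.14, 3.08 and 2.67. It was higher in 3 of 3 A172 sets and lower in 4 of 4 U87 sets, although with quantile scaling and in the deposited values 1 A172 set was not higher. The effects, 0.15 and -0.14, differed by 0.29 (adjusted p = 0.665 with blocks, limma, 1.00 without), which did not pass. Without A172 set 1 the A172 effect was 0.050.

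FADS1 read 2.60, 2.55 and 2.37 in A172 controls against 2.86, 2.96 and 2.49. In U87 it read 1.05, 1.40, -3.12 and 1.29 in controls against 1.44, 1.54, -1.10 and 1.64. Set 3 lay several units under the other U87 sets in both groups, and its control was not above background, so that its difference of 2.01 is no measured fold. The other U87 sets gave 0.39, 0.15 and 0.35, and the A172 sets 0.25, 0.41 and 0.13. Its U87 effect of 0.73 in log2 (standard error 0.28, adjusted p = 0.258 with blocks, limma, 0.0739 to 0.358 over 12 such fits, higher in 4 of 4 sets) did not pass. On leaving out the set 3 control array alone, in the fit without sets, the value was -0.36.

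SCD, the stearoyl-CoA desaturase, had the same shape, with 1.99, 2.18, -1.18 and 2.57 in U87 controls against 2.24, 2.31, 0.52 and 2.67. Its differences there were 0.25, 0.13, 1.70 and 0.10, that of set 3 again from a control under background, and in A172 they were -0.34, 0.24 and -0.37. FASN, the synthase itself, gave log2 fold changes of 0.15 and 0.14 in A172 and U87 and was higher in 4 of 4 U87 sets. ELOVL6, an elongase, was lower in 3 of 3 A172 sets, by -0.37, -0.29 and -0.52 (log2 fold change -0.39, adjusted p = 0.449 with blocks, limma, 0.0514 to 0.901 over 12 such fits). In U87 its sets gave -0.11, 0.34, -0.51 and -0.16. ACACA, the carboxylase that makes malonyl-CoA, read 0.57, 0.27 and -0.06 in the A172 sets and -0.12, 0.26, -0.74 and -1.42 in U87. Its second probe, tested in A172, gave 0.05.

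ABCA1, which passes cholesterol to lipoproteins outside the cell, lay below control in A172 and above it in U87. Its first probe read 1.22, -0.26 and 0.42 in A172 controls against 0.56, -0.35 and -0.14, and 1.41, 1.30, 1.99 and 1.45 in U87 controls against 1.79, 1.55, 2.14 and 1.59. The second probe read 0.60, -1.70 and -1.56 in A172 controls against -0.51, -2.21 and -2.39. In U87 it read -0.02, 0.36, -3.19 and 1.31 in controls against 0.38, 0.73, -2.18 and 1.36, with both set 3 arrays under the lowest level well above background there (-1.12 and -1.75). Both probes were lower in 3 of 3 A172 sets and higher in 4 of 4 U87 sets, except that the second was higher in 3 of 4 U87 sets with normexp.

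With sets as blocks the second ABCA1 probe fell by 0.82 in A172 (standard error 0.20, 0.567-fold, adjusted p = 0.139, limma, 0.0180 to 0.530 over 12 fits with blocks). It passed in 5 of those fits. It was lost on leaving out A172 set 1 (log2 fold change -0.67, adjusted p = 0.530), set 2 (-0.97, 0.321) or set 3 (-0.81, 0.519), and U87 set 1 or 2 (adjusted p = 0.221 and 0.214). It was also lost with quantile scaling (adjusted p = 0.310) and in the deposited values (0.363). The first probe gave -0.43 there (standard error 0.14, adjusted p = 0.281, 0.0498 to 0.802 over those fits). On leaving out the A172 set 1 control array alone, in the fit without sets, the first probe was at -0.054 in A172 and the second at -0.074. In U87 the probes gave 0.23 (adjusted p = 0.377, 0.334 to 0.578) and 0.46 (adjusted p = 0.243, 0.243 to 0.558), and neither passed. Without the U87 set 3 control array alone, in the fit without sets, the second probe was at -0.48 in U87. The effects in the lines differed by -0.66 and -1.28 with blocks (standard errors 0.19 and 0.26, adjusted p = 0.407 and 0.235, limma, and 1.00 for each without), and did not pass, where 0.421 percent of probes did with blocks and 0.00945 percent without.

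ABCG1, a second exporter, read -1.34, -0.16 and -0.49 in A172 controls against -0.99, 0.25 and 0.03, and -1.58, -0.99, -0.15 and -1.67 in U87 controls against -1.07, -0.66, -0.58 and -1.40. It was higher in 3 of 3 A172 sets, by 0.35, 0.41 and 0.52, and in 3 of 4 U87 sets, with set 3 at -0.43. In A172 ABCG1 and ABCA1 thus lay on opposite sides of control. The log2 fold changes of ABCG1, 0.42 and 0.17, did not pass with blocks (adjusted p = 0.461 and 0.584, limma, 0.0678 to 0.891 and 0.174 to 0.960 over 12 such fits).

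The plot of the lines against each other gives the 27 members tested in both. DHCR7, ACLY and ACAT2 lie above 0 on each axis, and ABCA1 lies below 0 in A172 and above it in U87.

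**Figure D3:**
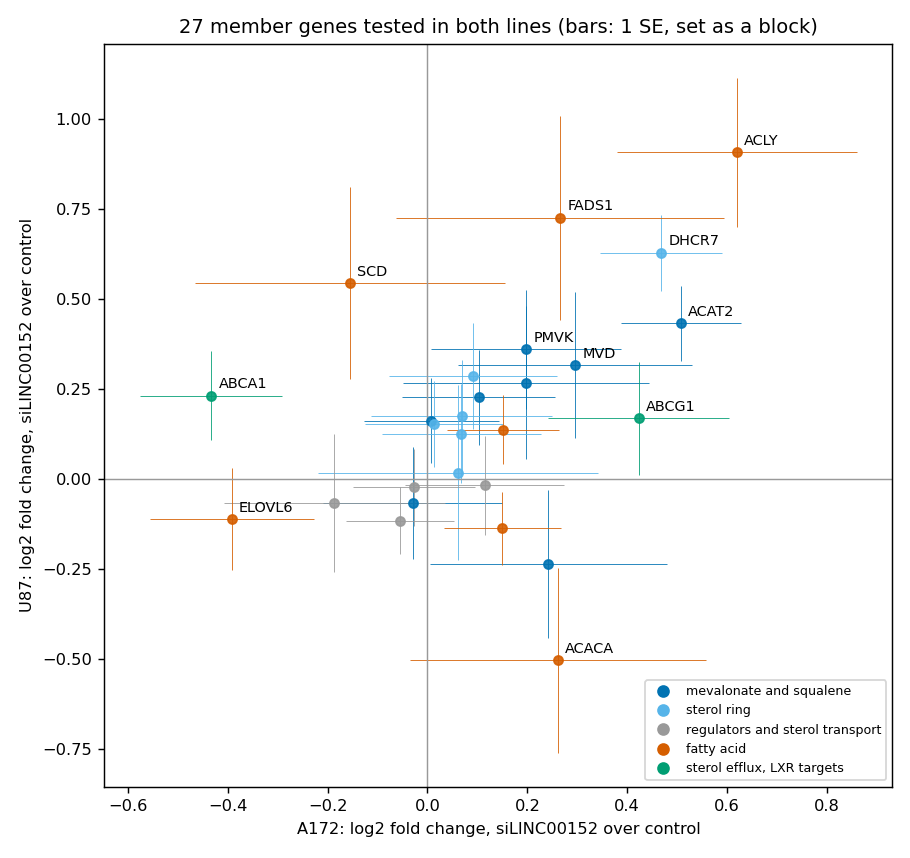
Log2 fold change in A172 against that in U87 for the 27 genes tested in both lines. Bars show 1 standard error from the limma fit with sets as blocks.

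Among 40 further lipid genes, 32 were tested in A172 and 29 in U87. Without sets limma called 0 in each, with 0 and 1 at an unadjusted p under 0.05. With sets as blocks 1 was called in A172, lower, where 2.17 percent of probes were called lower, and 3 in U87, higher, where 2.12 percent were called higher. ACSL3, a ligase that activates long-chain fatty acids, fell by 0.86 in A172 (0.549-fold, adjusted p = 0.0585, limma, 0.00137 to 0.367 over 12 fits with blocks, lower in 3 of 3 sets). Its call was lost without A172 set 1 (log2 fold change -0.91, adjusted p = 0.224), set 2 (-0.90, 0.281) or set 3 (-0.78, 0.367).

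RNF145, a ubiquitin ligase that responds to sterols, rose in U87 by 0.69 (adjusted p = 0.0827, limma, 0.0183 to 0.224 over those fits, higher in 4 of 4 sets). That was lost without U87 set 2 (0.71, 0.219) or set 4 (0.69, 0.224). It was also lost with normexp (0.43, 0.0183), the lowest of those adjusted p, since the fold limit was not met. In A172 RNF145 gave 0.47 (adjusted p = 0.299, limma, 0.0315 to 0.795, higher in 3 of 3 sets). ACSS2, which makes acetyl-CoA from acetate, rose in U87 by 0.55 (adjusted p = 0.0902, limma, 0.0460 to 0.249, higher in 4 of 4 sets). Its call was lost without U87 set 1 (0.54, 0.249), set 2 (0.59, 0.219), set 3 (0.48, 0.142) or set 4 (0.58, 0.221), and with normexp (0.32, 0.0460). HACD3, a dehydratase of fatty acid elongation, rose by 0.65 there (adjusted p = 0.167, limma, 0.0642 to 0.298, higher in 4 of 4 sets) and passed in 1 of 12 fits. It was lost without any 1 of the 7 sets, with 0.40 (adjusted p = 0.169) without U87 set 3, and adjusted p of 0.298, 0.261 and 0.269 without U87 set 1, 2 and 4, and of 0.214, 0.254 and 0.272 without A172 set 1, 2 and 3. It was also lost under each other scaling, with 0.30 (adjusted p = 0.0642) with normexp, and without the U87 set 3 control array alone HACD3 was at -0.0065.

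The replicate sets differed in level as well as in response. The U87 set 3 arrays were dim, with 75th percentiles of 33.0 (control) and 42.6 (siLINC00152) against at least 56.7 on the other U87 arrays, and 35.7 and 40.4 percent of probes well above background against 44.4 to 48.3. In that control 9 of 27 members lay more than 1 unit below the mean of the U87 controls, and all 9 were below the mean of their group in the siLINC00152 array too. How many of all probes lay so low was not counted. They were FADS1 (-3.27), SCD (-2.57), INSIG2 (-1.74), HMGCS1 (-1.65), CYP51A1 (-1.42), DHCR7 (-1.29), FDFT1 (-1.13), ACLY (-1.07) and IDI1 (-1.06). MVK (1.22), TM7SF2 (1.07) and ABCG1 (0.95) lay above the mean, as they did in the siLINC00152 array.

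Set 3 was the lowest U87 control for 16 of 27 members (59.3 percent) and the highest for 10 (37.0 percent), and over all probes it was the lowest for 34.4 percent and the highest for 49.1 percent. Among siLINC00152 arrays it was the lowest for 15 (55.6 percent) and the highest for 6 (22.2 percent), against 30.5 and 44.1 percent of all probes. The median absolute distance from the control mean was 0.82 over members and 0.56 over all probes. On that control 6 of these low members were not well above background, namely HMGCS1, FDFT1, CYP51A1, INSIG2, SCD and FADS1. The member shares and the distance of 0.82 thus rest in part on levels that were not measured, and they cannot be set against those of all probes. The part of dim signal in these low values was not tested.

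**Figure D4:**
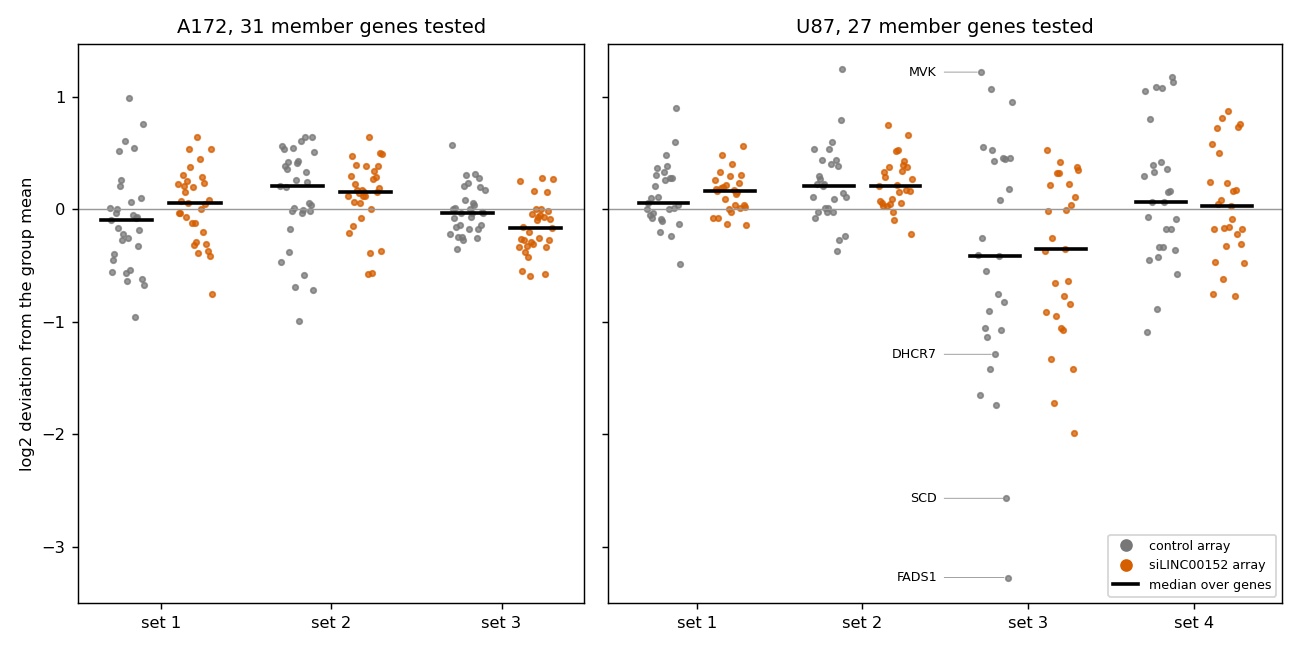
Distance of each array from the mean of its group, by set, for every tested member, control and siLINC00152. Bars show medians, and MVK, DHCR7, SCD and FADS1 are named at the U87 set 3 control.

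Within-set differences were also widest in U87 set 3, where 13 of 27 members (48.1 percent) differed by more than 0.5 (39.9 percent of all probes), against 4, 4 and 2 members in sets 1, 2 and 4. Of these 13, 6 had a set 3 control not well above background, namely HMGCS1, FDFT1, CYP51A1, INSIG2, SCD and FADS1. The member share thus rests in part on differences that were not measured, and it cannot be set against the share of all probes. Members above 0 numbered 18, 19, 15 and 18 of 27 in U87 sets 1 to 4, with medians of 0.16, 0.17, 0.12 and 0.14. In A172 they numbered 23, 19 and 10 of 31, with medians of 0.26, 0.14 and -0.04. Over all probes 54.6, 50.55 and 49.48 percent were above 0 in these sets, with medians of 0.043, 0.0030 and -0.0031. The set 2 count includes SQLE and NSDHL, whose set 2 control was not above background. A shift of the members was not tested. A172 set 1 had 10 of 31 members beyond 0.5 (32.3 percent; 22.0 percent of all probes). Set 2 had 4 (12.9 percent; 14.9 percent), again with SQLE (0.80) and NSDHL (1.18), and set 3 had 5 (16.1 percent; 11.8 percent). The high members of set 1 were ACLY (1.37), MVD (1.00), MVK (0.77), PMVK (0.72), ACAT2 (0.72), TM7SF2 (0.71), EBP (0.61) and ACACA (0.57). Its low ones were ABCA1 (-0.66) and INSIG2 (-0.53).

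Among A172 controls set 1 was the lowest for 15 of 31 members (48.4 percent; 51.8 percent of all probes). Set 2 was the highest for 16 (51.6 percent; 49.4 percent), so both shares were near those over all probes. In sets 1 and 2 ACLY was at -0.95 and 0.64 from the control mean, FADS2 at -0.62 and 0.64, and EBP at -0.64 and 0.41. INSIG2 was at 0.99 and -0.99, and ABCA1 at 0.76 and -0.72. The arrays of set 1 had 75th percentiles of 284 (control) and 207 (siLINC00152), those of set 2 131 and 148, and those of set 3 186 and 191. ACLY, FADS2 and EBP were thus lower in the brighter of these controls. Each A172 set was on a slide of its own and the U87 arrays on 1 slide, so that set and slide in A172, and line and slide, cannot be told apart for levels.

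Members given array by array outside the naming rule (FADS1, SCD and STARD4) and those singled out in the account of sets were chosen after their values were seen.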

How the data were processed

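RNA of A172 (3 sets) and U87 (4 sets) was read on 14 single-colour arrays. The deposited scanner files give intensity per spot, which the authors extracted with Agilent Feature Extraction 11.5.1.1 (background subtracted and detrended, not normalized between arrays). Flags for spot quality and background, of unit other, came in the same deposited files. The deposited series table holds log2 values that the authors made equal in distribution (median 4.38 in each array), and it was used as an alternative.

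Here the log2 processed signal minus the 75th percentile over 58717 spots was used. Spots with an outlier flag were dropped, spots of a probe averaged, and a probe counted as above background when at least 0.5 of its spots were. No spot was saturated, and 96 probe values were missing. Probes with 1 symbol through the RefSeq table numbered 29033. On the brightest array 69.0 percent of probes were well above background and on the dimmest 35.7 percent. The median standard error over tested probes was 0.39 in A172 and 0.32 in U87 without sets, and 0.18 and 0.14 with blocks.

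limma 3.58.1 in R 4.3.3 fitted 4 group means in 1 model over all 14 arrays, and the Benjamini-Hochberg correction ran over all probes tested in a line, or in both for the difference between lines. Set number entered as a block with 7 levels in the fit called with blocks. Steps were tested on simulated data with planted changes larger than that of any called member. Recovery and false calls at the size of the member calls, or with a dim set, were not tested. The authors' text gives the replicates as independent experiments. Pairing comes from set numbers in the sample titles. Levels of control and siLINC00152 arrays, each relative to its group mean, correlated at 0.675 to 0.795 for equal and -0.701 to -0.0436 for unequal numbers in A172, and at 0.373 to 0.864 and -0.772 to 0.411 in U87.

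A gene was represented by its probe above background on most arrays, ties broken by mean signal. All members were accounted for. Array values were given for members called in either fit and for the 2 members of each role with the highest signal, and further lipid genes were named when called. The members and lists were chosen with earlier results of these data known. The lists were the 5 roles, 40 further lipid genes (18 of isoprenoid and sterol handling, of which 0 and 1 were called with blocks in A172 and U87, and 22 of fatty acids and glycerolipids, of which 1 and 2 were), and 20 markers, of which 1 is not reported here. The roles with calls were mevalonate (1 in A172), sterol ring (1 in U87) and fatty acid (1 in U87), and regulators and efflux had 0 by limma with blocks for the representative probe, with 1 and 2 at an unadjusted p under 0.05 in A172 and 0 and 0 in U87. In that fit 7 of 31 members in A172 and 4 of 27 in U87 had such a p, against 3031 of 28338 and 3694 of 21921 of all probes.

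Alternatives were normexp background correction with an offset of 50, run on median spot signal since the files hold no mean signal, quantile scaling, the deposited values, no filter, each line by itself, a false discovery rate of 0.05, leaving out each array and each set, and blocks with each scaling. Values under the difference between lines with blocks, and for the second ABCA1 probe and further lipid genes under the alternatives, were added after seeing the data.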

Additional observations from a re-analysis of the deposited data

Results flagged for a closer look

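A value far from the other 3 of its group was looked for in 85 groups of 4 U87 values, as the gap to the nearest value over the whole range. Of these 12 stood apart, all 12 from set 3. About 1 group in 20 would stand apart among independent values, which these are not. How many groups stand apart over all probes was not counted. Over all probes set 3 was the lowest U87 control for 34.4 percent and the highest for 49.1 percent, so the 12 are a description. In the controls set 3 was lowest and apart for FDFT1 (0.913), LSS (0.872), DHCR7 (0.892), ACLY (0.894), SCD (0.846) and FADS1 (0.923). In the siLINC00152 arrays it was so for FDFT1 (0.892) and FADS1 (0.928). The difference within the set was highest and apart in set 3 for INSIG2 (0.897), ACLY (0.844), SCD (0.906) and FADS1 (0.868). These groups share arrays, and FDFT1, ACLY, SCD and FADS1 stood apart in more than 1 of them. FDFT1, SCD, FADS1 and INSIG2 were not well above background on the set 3 control. The part of dim signal was not tested.

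Of 58 probes tested in both lines, 5 went one way in all A172 sets and the other in all U87 sets, as did 2.96 percent of all probes tested in both. ABCA1 accounts for 2 of the 5, so they are not independent. MBTPS1 was higher in only 3 of 4 U87 sets with normexp, quantile scaling and the deposited values, and FADS2 in 2 of 3 A172 sets with quantile scaling and the deposited values. The second ABCA1 probe was higher in 3 of 4 U87 sets with normexp, and both its U87 set 3 arrays lay under the lowest level well above background. The first ABCA1 probe and NPC1 kept this pattern under each scaling. Subtracting the U87 effect from the A172 effect gave 0.29 for FADS2, -1.28 and -0.66 for the 2 ABCA1 probes, -0.43 for MBTPS1, the protease that first cleaves SREBPs, and -0.83 for NPC1, which moves cholesterol out of lysosomes. The limma test of the difference with blocks gave adjusted p of 0.665, 0.235, 0.407, 0.625 and 0.310, and 1.00 for each without, and none passed.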

How the results depend on the processing

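With set number as a block, probes called went from 52 to 924 in A172, from 11 to 918 in U87 and, added after seeing the data, from 2 to 89 for the difference between lines, and members called from 0 to 1 and 2. With normexp they were 133, 4 and 1, and the U87 median over members 0.050. Quantile scaling and the deposited values each gave 1 for the difference. A172 had 34 with no filter and 14 fitted by itself. A false discovery rate of 0.05 gave 27, 7 and 1. Blocks with normexp gave 636, 142 and 463, members 1 and 1, and a U87 median of 0.050. Blocks with quantile scaling gave 757, 769 and 53, and 2 U87 members, with the deposited values 679, 635 and 51, and 2 U87 members, and with each line by itself 1612 and 676, and 2 and 2 members.

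Without 1 array, A172 gave 21 to 90 probes, 0 members and a median of 0.070 to 0.21, U87 gave 7 to 17 probes, 0 members and a median of -0.077 (without control 3) to 0.25 (without siLINC00152 3), and the difference 1 to 2. Without 1 set the ranges were 4 to 127, 0 and -0.017 to 0.21 in A172, 5 to 13, 0 and 0.14 to 0.17 in U87, and 0 to 2. With blocks and without A172 set 1, 2 or 3, probes numbered 345, 269 and 226 in A172, 755, 567 and 466 in U87, and 4, 2 and 4 for the difference, with 0 members in A172 and 2 in U87 each time. Without U87 set 1, 2, 3 or 4 they numbered 675, 704, 1411 and 734, then 275, 300, 729 and 306, then 5, 6, 101 and 9, with 1 U87 member each and 2 in A172 without U87 set 3. The cause was not tested. Where an arm keeps 2 or 3 arrays its spread is pooled with the other groups.

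ACAT2, DHCR7, ACLY and the first ABCA1 probe kept their direction in both lines in all 42 settings tried, as did SCAP, ACACA and RNF145. Many of these settings could not turn it. Dropping arrays of the other line, adding blocks or fitting a line alone leaves the fold change of a line as it was. In U87, FADS1 (-0.36), HACD3 (-0.0065) and the second ABCA1 probe (-0.48) turned in 1 setting, without the set 3 control. Signal over background limits U87, where 7 members were not tested.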
